A study of Arabidopsis thaliana with 20 samples.

Results

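The 10 Arabidopsis genes described here were taken by locus identifier, 10 of 36799 genes in the gene tables. The list was chosen from earlier results of these data, in which the response to warming of LTP2 in ein3 eil1 and of AT2G45180 in lhp1 had been seen. It holds the lipid transfer protein genes LTP1 (AT2G38540), LTP2 (AT2G38530), LTP3 (AT5G59320) and LTP4 (AT5G59310), and AT2G45180 and AT5G55410 of the wider lipid transfer domain family. It also holds the fatty acid elongation genes KCS1 (AT1G01120) and KCS6 (AT1G68530), and the wax alkane genes CER1 (AT1G02205) and CER3 (AT5G57800). Poly(A) RNA was sequenced from whole seedlings, 5 days old and green, of 5 genotypes. These were the mutants ein2 (ein2-5), ein3 eil1 (ein3-1 eil1-1), lhp1 (lhp1-3) and ein2 lhp1 (ein2-5 lhp1-3), and the wild type Col-0. All were raised in short days at 21 °C on Murashige and Skoog medium with 1% sucrose, and 1 set of each genotype was moved to 27 °C for 4 h, between 4 and 8 h after lights on. Each of the 10 groups had 2 libraries, 20 in all. The labels do not say whether the replicates came from separate sets of plants, so the p-values measure the spread between these libraries, which may be technical. Each mutated gene is represented by 1 allele.

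The cuticle is the waxy film over the shoot epidermis, made of the polyester cutin and of waxes. Waxes are built from very-long-chain fatty acids. KCS enzymes carry out the condensing step of elongation, with KCS6 the main one for wax chains in the shoot. CER1 and CER3 act together to turn the products into alkanes. Lipid transfer proteins are small secreted proteins that bind lipids, and their genes are among the most strongly expressed in the young epidermis. EIN2 relays the ethylene signal from the endoplasmic reticulum to the nucleus, EIN3 and EIL1 are the transcription factors it stabilizes, and LHP1 reads the repressive polycomb mark H3K27me3. The series title joins LHP1, the INO80 remodeller and ethylene signalling to the response to warmth.

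All 10 genes passed the filter on low counts. Levels are given as CPM, read counts scaled to a common library size with the TMM factors of edgeR. A difference is a log2 fold change with its standard error (SE). LTP1, LTP3, LTP4, KCS1, KCS6, CER1 and CER3 were tested with the quasi-likelihood test of edgeR across all 21987 genes and called at a Benjamini-Hochberg adjusted p under 0.05. LTP2 and AT2G45180 were picked on their responses, and how AT5G55410 was picked is not known, so values are given for these 3 genes with no test. The 7 tested genes come from the same list, chosen with earlier results of these data known. Their p-values and counts of calls are therefore not those of genes chosen independently of these data. An alternative fit first removed from each library the trend of log2 level over exon length (the length trend). It is named where it changes a call of the 7 tested genes.

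LTP2 and LTP1 lie in tandem on chromosome 2, with 890 bases between LTP2 (chr2:16128176-16129399, plus strand) and LTP1 (chr2:16130290-16131240, plus strand, listed as LP1 in RefSeq). LTP4 (chr5:23924990-23925957, minus strand) and LTP3 (chr5:23928954-23929816, plus strand) face away from each other, with 2996 bases between their starts. No stretch of 50 exon bases in any of the 10 genes occurs in another gene; the longest shared by LTP3 and LTP4 was 44 bases and by LTP1 and LTP2 40 bases. None of the 10 overlaps another listed gene. The start regions of LTP3 and LTP4 (250 bases before the annotated start to 50 after, RefSeq, TAIR10.1) are shown because the results turn on this pair. Capitals mark the 30 bases they share, which occur in 2 of 27443 start regions of protein-coding genes.
LTP3, chr5:23928704-23929003, plus strand: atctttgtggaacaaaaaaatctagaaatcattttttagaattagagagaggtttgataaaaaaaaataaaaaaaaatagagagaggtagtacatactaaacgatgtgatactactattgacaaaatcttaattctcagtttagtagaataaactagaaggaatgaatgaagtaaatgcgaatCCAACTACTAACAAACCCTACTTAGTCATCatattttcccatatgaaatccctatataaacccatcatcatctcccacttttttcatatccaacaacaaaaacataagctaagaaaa
LTP4, chr5:23925908-23926207, minus strand: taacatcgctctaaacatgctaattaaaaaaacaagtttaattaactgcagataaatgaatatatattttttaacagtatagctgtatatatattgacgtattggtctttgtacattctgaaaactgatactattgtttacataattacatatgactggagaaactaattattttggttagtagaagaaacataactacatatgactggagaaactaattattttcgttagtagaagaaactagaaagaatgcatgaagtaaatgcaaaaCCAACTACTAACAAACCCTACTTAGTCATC
The shared stretch begins 67 bases before the start base of LTP3 and 20 bases after that of LTP4. It runs to the last base of the LTP4 region, so its length is bounded by the end of that region. The longest stretch shared by the start regions was 9 bases for LTP1 with LTP2, for KCS1 with KCS6 and for CER1 with CER3.

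Libraries held 24153109 to 47566071 counts in all. EIN2 was at 22.8 to 27.4 CPM in the 8 libraries with ein2 and at 66.1 to 86.4 CPM in wild type. EIN3 was at 22.6 to 34.9 CPM in ein3 eil1 and at 81.4 to 109 CPM in wild type, and EIL1 was at 22.0 to 24.2 CPM in ein3 eil1 and at 55.0 to 62.2 CPM in wild type. In ein2 and ein2 lhp1, EIL1 was at 32.7 to 45.3 CPM. LHP1 was at 5.43 to 9.53 CPM in the 8 libraries with lhp1 and at 11.0 to 15.0 CPM in wild type. In ein2 and ein3 eil1, where LHP1 is not mutated, it was at 9.04 to 14.8 CPM. The ein2 libraries at 21 °C (11.0 and 9.04 CPM) overlapped those of lhp1 (9.53 and 9.33 CPM), so LHP1 counts alone do not separate these groups. The 6 epidermis markers were detected in every group. The 11 seed maturation markers, genes for storage proteins, oleosins and EM proteins, summed to between 47.8 and 745 CPM in the mutant groups, against 9.96 to 13.9 CPM in wild type. Their part in the results was not tested.

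LTP3 and LTP4 were several-fold higher in ein3 eil1, lhp1 and ein2 lhp1 than in wild type at 21 °C, and in ein3 eil1 and lhp1 both fell at 27 °C. At 21 °C, LTP4 had 26.6 and 29.0 CPM in ein3 eil1, 27.2 and 24.6 CPM in lhp1, 17.8 and 16.3 CPM in ein2 lhp1 and 1.89 and 2.97 CPM in ein2, against 2.86 and 3.49 CPM in wild type. The libraries of ein3 eil1, lhp1 and ein2 lhp1 stood above those of wild type with no overlap, while those of ein2 overlapped them. Those of ein3 eil1 and lhp1 overlapped each other. LTP4 was 8.69-fold higher in ein3 eil1 (log2 3.12, SE 0.13, adjusted p = 1.01e-32, edgeR quasi-likelihood test), 8.09-fold higher in lhp1 (log2 3.02, SE 0.13, adjusted p = 5.94e-32) and 5.31-fold higher in ein2 lhp1 (log2 2.41, SE 0.14, adjusted p = 2.54e-25). In ein2 the log2 difference was -0.41 (SE 0.18, adjusted p = 0.0719), and leaving out replicate 1 of wild type or replicate 2 of ein2 at 21 °C put it at -0.53 and -0.76, past the threshold.

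LTP3 had the same order of genotypes at 21 °C. It had 94.3 and 90.3 CPM in ein3 eil1, 75.0 and 81.7 CPM in lhp1, 66.7 and 66.9 CPM in ein2 lhp1 and 24.6 and 23.0 CPM in ein2, against 28.0 and 26.5 CPM in wild type. Libraries of the 5 genotypes did not overlap. LTP3 was 3.38-fold higher in ein3 eil1 (log2 1.76, SE 0.064, adjusted p = 1.19e-36, edgeR quasi-likelihood test), 2.87-fold higher in lhp1 (log2 1.52, SE 0.063) and 2.45-fold higher in ein2 lhp1 (log2 1.29, SE 0.065), all called. In ein2 it was lower (log2 -0.19, SE 0.070, adjusted p = 0.0254). That call was lost without replicate 1 of wild type (-0.16) or replicate 2 of ein2 (-0.14) at 21 °C, and with the length trend removed the difference was 0.00.

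**Figure D1:**
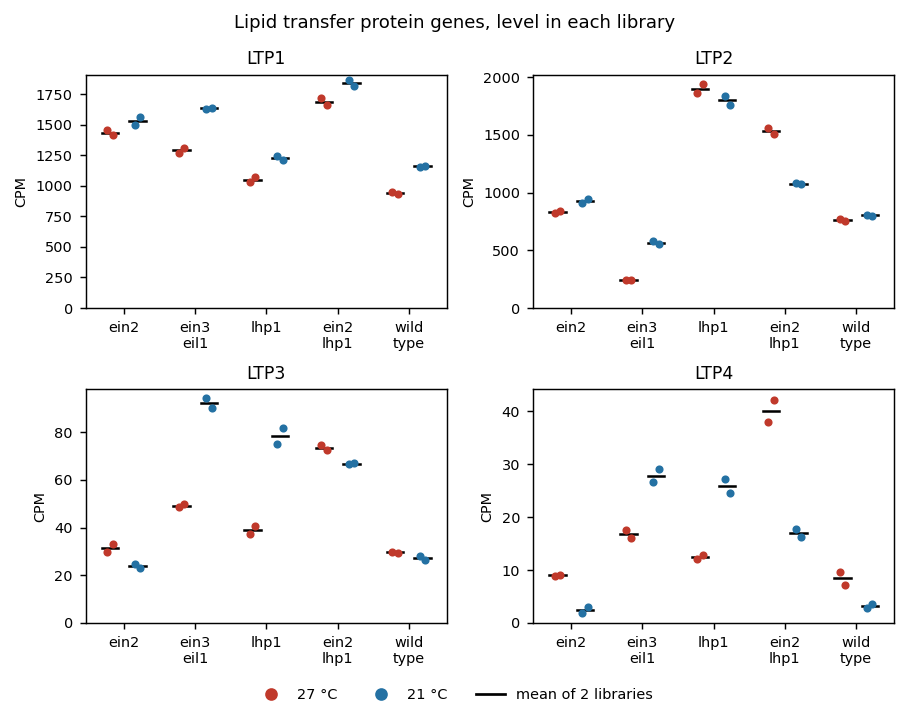
Level of LTP1, LTP2, LTP3 and LTP4 in CPM (linear axes from 0) in each library at 27 °C (red) and 21 °C (blue), by genotype, with the mutants left of wild type; black bars are means of 2 libraries. LTP3 and LTP4 at 21 °C stood high in ein3 eil1, lhp1 and ein2 lhp1, and LTP2 was lowest in ein3 eil1 at 27 °C, with 243 and 241 CPM.

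Warming moved LTP3 and LTP4 in opposite directions in different genotypes. LTP4 had 8.94 and 9.05 CPM at 27 °C and 1.89 and 2.97 CPM at 21 °C in ein2. In ein2 lhp1 it had 37.9 and 42.1 CPM at 27 °C and 17.8 and 16.3 CPM at 21 °C, and in wild type 9.71 and 7.25 CPM at 27 °C and 2.86 and 3.49 CPM at 21 °C. It had 17.5 and 16.0 CPM at 27 °C and 26.6 and 29.0 CPM at 21 °C in ein3 eil1, and 12.0 and 12.8 CPM at 27 °C and 27.2 and 24.6 CPM at 21 °C in lhp1. The temperatures did not overlap in any genotype. The gene rose in ein2, ein2 lhp1 and wild type and fell in ein3 eil1 and lhp1. The log2 changes were 1.89 (SE 0.16) in ein2, 1.23 (SE 0.11) in ein2 lhp1 and 1.41 (SE 0.14) in wild type, against -0.73 (SE 0.11) in ein3 eil1 and -1.07 (SE 0.11) in lhp1. Adjusted p ranged from 3.1e-08 in ein3 eil1 to 1.07e-16 in ein2 by the edgeR quasi-likelihood test.

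LTP3 likewise fell in ein3 eil1, with 48.7 and 49.8 CPM at 27 °C and 94.3 and 90.3 CPM at 21 °C, and in lhp1, with 37.3 and 40.7 CPM at 27 °C and 75.0 and 81.7 CPM at 21 °C. The log2 changes were -0.90 (SE 0.060, adjusted p = 9.36e-22) and -1.01 (SE 0.061, adjusted p = 1.52e-23) by the edgeR quasi-likelihood test. In ein2 it rose by log2 0.41 (SE 0.070, adjusted p = 2.64e-06), with 29.9 and 33.2 CPM at 27 °C and 24.6 and 23.0 CPM at 21 °C. The change was 0.14 (SE 0.061, adjusted p = 0.0862) in ein2 lhp1 and 0.13 (SE 0.067, adjusted p = 0.136) in wild type. With the length trend removed these became 0.19 and 0.46, both called.

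The differences of response, the log2 change with warming in a mutant minus that in wild type, were tested as interaction contrasts, and all 4 share the wild type libraries. For LTP4 they were -2.14 (SE 0.18, adjusted p = 1.32e-15, edgeR quasi-likelihood test) in ein3 eil1 and -2.49 (SE 0.18, adjusted p = 2.71e-19) in lhp1. For LTP3 they were -1.03 (SE 0.090) in ein3 eil1 and -1.14 (SE 0.091) in lhp1, both called. In ein2 lhp1 the differences from wild type were -0.18 (SE 0.18, adjusted p = 0.579) for LTP4 and 0.01 (SE 0.091, adjusted p = 0.959) for LTP3, and with the length trend removed LTP3 was called at -0.27. Set against lhp1 alone, the response of ein2 lhp1 was higher by log2 2.31 (SE 0.15, adjusted p = 9.81e-21) for LTP4 and 1.15 (SE 0.087, adjusted p = 3.81e-18) for LTP3.

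At 27 °C the genotypes were ordered differently. LTP4 had 37.9 and 42.1 CPM in ein2 lhp1, 17.5 and 16.0 CPM in ein3 eil1, 12.0 and 12.8 CPM in lhp1 and 8.94 and 9.05 CPM in ein2, against 9.71 and 7.25 CPM in wild type. The ein2 lhp1 libraries were the highest of all 20, and those of ein2 and wild type overlapped. The gene was 3.25-fold higher in ein2 lhp1 than in lhp1 (log2 1.70, SE 0.11, adjusted p = 2.02e-22, edgeR quasi-likelihood test) and 4.45-fold higher than in ein2 (log2 2.15, SE 0.12, adjusted p = 7.61e-27). LTP3 at 27 °C had 74.7 and 72.3 CPM in ein2 lhp1, against 37.3 and 40.7 CPM in lhp1 and 29.9 and 33.2 CPM in ein2. It was 1.89-fold higher than in lhp1 (log2 0.92, SE 0.063) and 2.32-fold higher than in ein2 (log2 1.22, SE 0.065), both called. At 21 °C the order between ein2 lhp1 and lhp1 was the other way, with log2 -0.61 (SE 0.11) for LTP4 and -0.23 (SE 0.060) for LTP3, both called. The LTP4 difference of lhp1 from wild type at 27 °C, log2 0.53 (SE 0.12), was 0.34 and not called without replicate 2 of wild type at 27 °C. The LTP3 difference of ein2 lhp1 from lhp1 at 21 °C was -0.17 and not called without replicate 2 of lhp1.

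Per kilobase of exon LTP1 had the highest mean over the 10 groups of the 4 LTP genes. It fell on warming in every genotype and was higher in every mutant than in wild type. Its level ran from 936 to 1864 CPM over the 20 libraries, and no neighbours in the order of the 10 groups overlapped. At 27 °C it had 1456 and 1412 CPM in ein2, 1272 and 1313 CPM in ein3 eil1, 1029 and 1071 CPM in lhp1 and 1715 and 1660 CPM in ein2 lhp1, against 947 and 936 CPM in wild type. At 21 °C it had 1497 and 1562 CPM in ein2, 1632 and 1636 CPM in ein3 eil1, 1244 and 1209 CPM in lhp1 and 1864 and 1814 CPM in ein2 lhp1, against 1152 and 1163 CPM in wild type. No mutant overlapped wild type at either temperature, with called log2 differences between 0.08 (lhp1, SE 0.025) and 0.67 (ein2 lhp1, SE 0.025) at 21 °C and between 0.16 (lhp1) and 0.84 (ein2 lhp1) at 27 °C. The lhp1 difference at 21 °C was not called without replicate 1 of wild type (0.07) or replicate 1 of lhp1 (0.06), and at 27 °C it was 0.05 and not called with the length trend removed. On warming the log2 changes were between -0.34 in ein3 eil1 and -0.09 in ein2, and -0.30 in wild type (SE 0.025 each). With the length trend removed the change in wild type was 0.01, not called. The changes in ein3 eil1 (-0.14), ein2 (-0.15), lhp1 (-0.08) and ein2 lhp1 (-0.08) were still called. The fall in ein2 was not called without replicate 2 of ein2 at 21 °C (-0.06) or at 27 °C (-0.07).

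LTP2, the tandem neighbour of LTP1, had a wider range of levels between genotypes, and its values are a description. At 27 °C it had 827 and 843 CPM in ein2, 243 and 241 CPM in ein3 eil1, 1860 and 1937 CPM in lhp1 and 1561 and 1504 CPM in ein2 lhp1, against 772 and 757 CPM in wild type. At 21 °C it had 910 and 945 CPM in ein2, 576 and 556 CPM in ein3 eil1, 1835 and 1762 CPM in lhp1 and 1080 and 1071 CPM in ein2 lhp1, against 806 and 799 CPM in wild type. Levels were lowest in ein3 eil1 and highest in lhp1 at both temperatures, and no neighbours in the order of groups overlapped. The log2 change with warming was -1.23 (SE 0.028) in ein3 eil1, 0.51 (SE 0.026) in ein2 lhp1 and between -0.15 and 0.08 in ein2, lhp1 and wild type. With the length trend removed the change in wild type went from -0.07 to 0.11. Against wild type LTP2 was 2.24-fold higher in lhp1 at 21 °C (log2 1.16, SE 0.027) and 3.16-fold lower in ein3 eil1 at 27 °C (log2 -1.66, SE 0.028). Per kilobase of exon, the mean level of LTP1 over the groups was 1658 CPM and that of LTP2 938 CPM, against 66.5 CPM for LTP3 and 19.6 CPM for LTP4. In lhp1 LTP2 stood above LTP1 per kilobase, at 1706 against 1262 CPM at 27 °C and 1616 against 1474 CPM at 21 °C.

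Both other genes of the domain family are described without a test. AT2G45180 (chr2:18626188-18627157, plus strand) had 1086 and 1074 CPM at 27 °C and 721 and 746 CPM at 21 °C in lhp1, against 1102 and 1093 CPM at 27 °C and 1298 and 1323 CPM at 21 °C in wild type. The lhp1 libraries at 21 °C were the lowest of all 20, and at 27 °C lhp1 and wild type were close. The log2 change with warming was 0.56 (SE 0.025) in lhp1 and -0.26 (SE 0.025) in wild type. With the length trend removed these were 0.66 and -0.01. In ein2 lhp1 the gene had 1771 and 1727 CPM at 27 °C and 1807 and 1839 CPM at 21 °C, the highest levels of the series, and log2 1.31 (SE 0.025) above lhp1 at 21 °C. In ein2 it had 1426 and 1373 CPM at 27 °C and 1303 and 1373 CPM at 21 °C, and in ein3 eil1 1321 and 1314 CPM at 27 °C and 1667 and 1683 CPM at 21 °C.

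AT5G55410 (chr5:22460550-22461385, plus strand) was close to undetected in wild type, with 4 and 18 counts at 27 °C and 2 and 4 counts at 21 °C, so no fold is given against wild type. It had 20.8 and 20.5 CPM at 27 °C and 27.3 and 30.0 CPM at 21 °C in ein2, and 39.9 and 36.3 CPM at 27 °C and 20.7 and 21.2 CPM at 21 °C in ein2 lhp1. In ein3 eil1 it had 1.94 and 1.36 CPM at 27 °C and 3.06 and 3.65 CPM at 21 °C, and in lhp1 0.596 and 0.465 CPM at 27 °C and 5.11 and 6.89 CPM at 21 °C. Levels were highest in ein2 and ein2 lhp1, and warming went with a lower level in lhp1 (log2 -3.44, SE 0.23) and a higher one in ein2 lhp1 (log2 0.86, SE 0.12). The summed level of the 11 seed maturation markers was 264 to 279 CPM at 27 °C and 397 to 407 CPM at 21 °C in ein2, and 725 to 745 CPM at 27 °C and 410 to 430 CPM at 21 °C in ein2 lhp1. It was 85.5 to 88.0 CPM at 27 °C and 94.0 to 96.2 CPM at 21 °C in ein3 eil1, and 47.8 to 51.2 CPM at 27 °C and 405 to 409 CPM at 21 °C in lhp1. In wild type it was 9.96 to 13.2 CPM at 27 °C and 13.0 to 13.9 CPM at 21 °C. Of the 11, 2 were at 0 in wild type at 27 °C, 1 in wild type at 21 °C and 1 in ein2 at 21 °C. The sums do not show how each marker moved. At 21 °C OLEO2 alone had 204 and 205 CPM in ein2, and CRA1 had 144 and 147 CPM in lhp1. At 21 °C 4 markers were called higher and 7 lower in ein2 lhp1 than in lhp1, against 19.3% and 16.6% of all genes. On warming in ein3 eil1 1 was called higher and 5 lower, against 16.9% and 19.9% of all genes. Their part in the level of AT5G55410 was not tested.

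**Figure D2:**
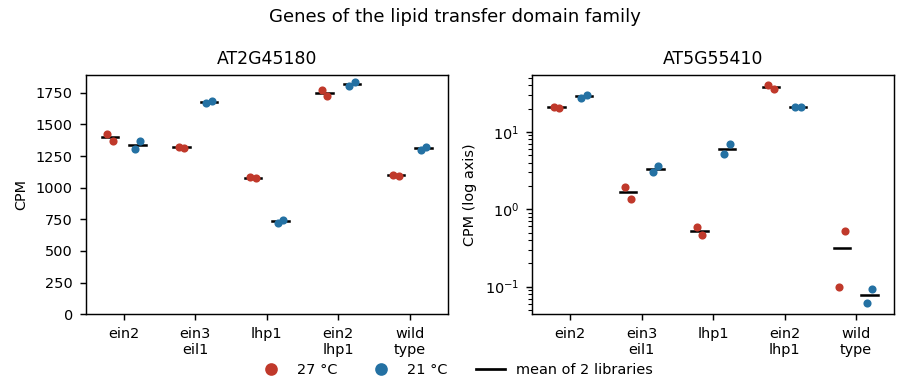
Level of AT2G45180 (linear axis from 0) and AT5G55410 (log axis) in CPM in each library at 27 °C (red) and 21 °C (blue), by genotype, with the mutants left of wild type; black bars are means of 2 libraries. AT2G45180 was lowest in lhp1 at 21 °C, with 721 and 746 CPM, and AT5G55410 was highest in ein2 lhp1 at 27 °C, with 39.9 and 36.3 CPM.

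The 4 enzyme genes of the wax pathway rose together in wild type on warming. CER1 (chr1:418416-422579, plus strand) had 61.9 and 59.8 CPM at 27 °C and 33.0 and 36.9 CPM at 21 °C in wild type. It rose 1.74-fold (log2 0.80, SE 0.058, adjusted p = 6.12e-20, edgeR quasi-likelihood test), with no overlap between temperatures. KCS6 (chr1:25712414-25715024, minus strand) had 259 and 248 CPM at 27 °C and 196 and 191 CPM at 21 °C, and KCS1 (chr1:57164-59215, minus strand) had 98.8 and 105 CPM at 27 °C and 77.6 and 78.9 CPM at 21 °C. Both rose about equally, KCS6 by log2 0.39 (SE 0.035) and KCS1 by 0.38 (SE 0.048). CER3 (chr5:23420184-23424117, plus strand) had 107 and 108 CPM at 27 °C and 95.4 and 88.6 CPM at 21 °C, a rise of 0.22 (SE 0.046, adjusted p = 4.71e-05). With the length trend removed the rises were 0.59 for CER1, 0.26 for KCS6 and 0.34 for KCS1, all called, while that of CER3 was 0.10 and not called. Of the 7 tested genes, 6 were called in wild type, 5 higher and LTP1 lower, where 39.2% of all genes were called, 18.8% higher and 20.3% lower. In bulk samples, fewer cells of a type and less RNA per cell cannot be told apart.

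**Figure D3:**
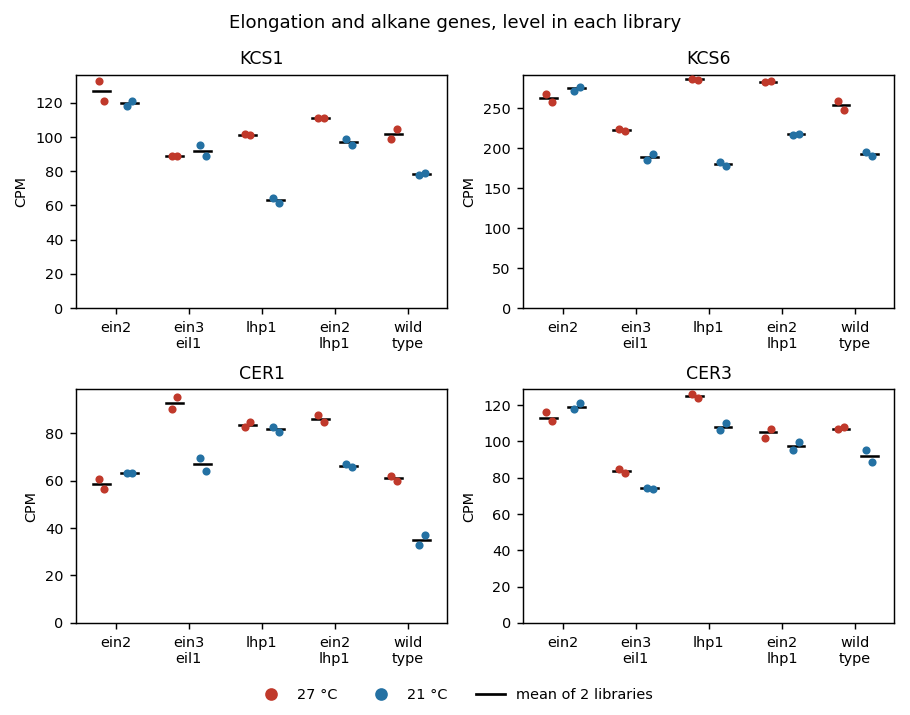
Level of KCS1, KCS6, CER1 and CER3 in CPM (linear axes from 0) in each library at 27 °C (red) and 21 °C (blue), by genotype, with the mutants left of wild type; black bars are means of 2 libraries. CER1 at 21 °C was lowest in wild type, with 33.0 and 36.9 CPM, and all mutant libraries lay between 56.5 and 95.3 CPM.

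None of the 4 was called in ein2 on warming. Of the 7 tested genes, 3 were called there, 2 higher and 1 lower, against 27.1% of all genes, 11.8% higher and 15.4% lower. CER1 had 60.6 and 56.5 CPM at 27 °C and 63.1 and 63.3 CPM at 21 °C in ein2, and KCS6 had 268 and 258 CPM at 27 °C and 272 and 277 CPM at 21 °C. At 21 °C these levels lay above wild type, and at 27 °C the ein2 and wild type libraries overlapped. The differences of response of ein2 from wild type were -0.91 (SE 0.080, adjusted p = 2.4e-15, edgeR quasi-likelihood test) for CER1, -0.46 (SE 0.050, adjusted p = 5.62e-12) for KCS6, -0.29 (SE 0.067, adjusted p = 0.000437) for KCS1 and -0.30 (SE 0.065, adjusted p = 0.000192) for CER3. For LTP1 it was 0.21 and for LTP3 0.28, so 6 of the 7 were called, 2 higher and 4 lower, against 24.1% of all genes, 11.9% higher and 12.2% lower. With the length trend removed, CER1 (-0.67), KCS6 (-0.30) and KCS1 (-0.22) were still called, and CER3 at -0.15 was not. LTP1 turned to -0.16, called, and LTP3 to -0.12, not called. The LTP3 value also lost its call when replicate 2 of ein2 at 27 °C (0.20) or at 21 °C (0.23), replicate 2 of wild type at 27 °C (0.27) or replicate 1 of wild type at 21 °C (0.24) was left out. The LTP4 value, 0.48 (SE 0.22, adjusted p = 0.107), was called at 0.84 without replicate 2 of ein2 at 21 °C and at 0.72 without replicate 1 of wild type at 27 °C.

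In lhp1 the elongation genes and CER1 parted. KCS6 had 287 and 286 CPM at 27 °C and 183 and 178 CPM at 21 °C, and KCS1 had 102 and 101 CPM at 27 °C and 64.3 and 61.6 CPM at 21 °C. They rose by log2 0.67 (SE 0.035) and 0.69 (SE 0.049), more than in wild type by 0.28 (SE 0.050, adjusted p = 9.67e-06, edgeR quasi-likelihood test) and 0.31 (SE 0.068, adjusted p = 0.000308). CER1 had 82.4 and 84.6 CPM at 27 °C and 82.6 and 80.5 CPM at 21 °C. Those libraries overlapped, with a change of 0.03 (SE 0.053, adjusted p = 0.691), and the difference from wild type was -0.76 (SE 0.078, adjusted p = 8.85e-13). CER3 rose by 0.21 (SE 0.045), a difference from wild type of -0.01 (SE 0.065, adjusted p = 0.942). Of the 7 tested genes, 6 were called on warming in lhp1, 3 in each direction, against 31.7% of all genes, 16.2% higher and 15.6% lower. Of the differences of response, 5 were called, 2 higher and 3 lower, against 20.6% of all genes, 12.4% higher and 8.25% lower.

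In ein3 eil1, CER1 had 90.3 and 95.3 CPM at 27 °C and 69.6 and 64.2 CPM at 21 °C, a rise of log2 0.48 (SE 0.054, adjusted p = 1.45e-11, edgeR quasi-likelihood test). KCS6 rose by 0.24 (SE 0.036) and CER3 by 0.17 (SE 0.048), not called at 0.11 with the length trend removed. KCS1 had 88.7 and 89.0 CPM at 27 °C and 95.3 and 89.0 CPM at 21 °C, overlapping values, and its difference of response from wild type was -0.43 (SE 0.068, adjusted p = 2.23e-06). On warming, 6 of the 7 tested genes were called, 3 in each direction, against 36.8% of all genes, 16.9% higher and 19.9% lower. For the response, 5 of the 7 were called, all lower, against 9.46% of all genes, 4.07% higher and 5.39% lower. Those of CER1 (-0.32, SE 0.079) and KCS6 (-0.16, SE 0.050) were not called with the length trend removed, at -0.21 and -0.09, and CER1 was not called without replicate 1 of wild type at 21 °C (-0.25). KCS6 was not called in 5 fits that left out a library of ein3 eil1 or wild type, with values between -0.13 and -0.16. The difference of response of LTP1 was -0.04, not called, and -0.15, called, with the length trend removed.

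In ein2 lhp1, CER1 had 87.6 and 84.5 CPM at 27 °C and 66.8 and 65.7 CPM at 21 °C, and KCS6 had 283 and 284 CPM at 27 °C and 217 and 218 CPM at 21 °C. KCS1 had 111 and 111 CPM at 27 °C and 99.1 and 95.4 CPM at 21 °C. All rose, CER1 by log2 0.38 (SE 0.056, adjusted p = 7.2e-08, edgeR quasi-likelihood test), KCS6 by 0.38 (SE 0.036) and KCS1 by 0.19 (SE 0.049). CER3 had 102 and 107 CPM at 27 °C and 95.0 and 99.5 CPM at 21 °C, a change of 0.11 (SE 0.048, adjusted p = 0.0808). Of the 7 tested genes, 5 were called, 4 higher and 1 lower, against 29.0% of all genes, 14.3% higher and 14.7% lower. The responses of CER1 and KCS6 were higher than in ein2 by 0.49 (SE 0.079, adjusted p = 1.86e-06) and 0.45 (SE 0.050, adjusted p = 5.06e-11). In that comparison 5 of the 7 were called, 3 higher and 2 lower, against 13.2% of all genes, 7.82% higher and 5.42% lower. This count was 3 when replicate 2 of ein2 lhp1 at 27 °C, replicate 2 of ein2 at 27 °C or either ein2 library at 21 °C was left out. It was 2 when replicate 1 of ein2 lhp1 at 21 °C was left out. The LTP4 difference of -0.66 (SE 0.20) became -0.37, not called, without replicate 1 of ein2 at 21 °C and -1.02 without replicate 2. Against lhp1, the response was higher for CER1 by 0.34 (SE 0.077) and lower for KCS1 (log2 -0.50, SE 0.069) and for KCS6 (log2 -0.29, SE 0.050). There 6 of the 7 were called, 4 higher and 2 lower, against 15.2% of all genes, 7.04% higher and 8.12% lower. Against wild type, 3 of the 7 were called, 1 higher and 2 lower, against 16.9% of all genes, 10.1% higher and 6.75% lower. CER1 was lower there (log2 -0.42, SE 0.080), as was KCS1 (log2 -0.19, SE 0.069), and LTP1 was higher by 0.17 (SE 0.035). None of these 3 was called with the length trend removed, CER1 at -0.20, KCS1 at -0.15 and LTP1 at -0.09.

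**Figure D4:**
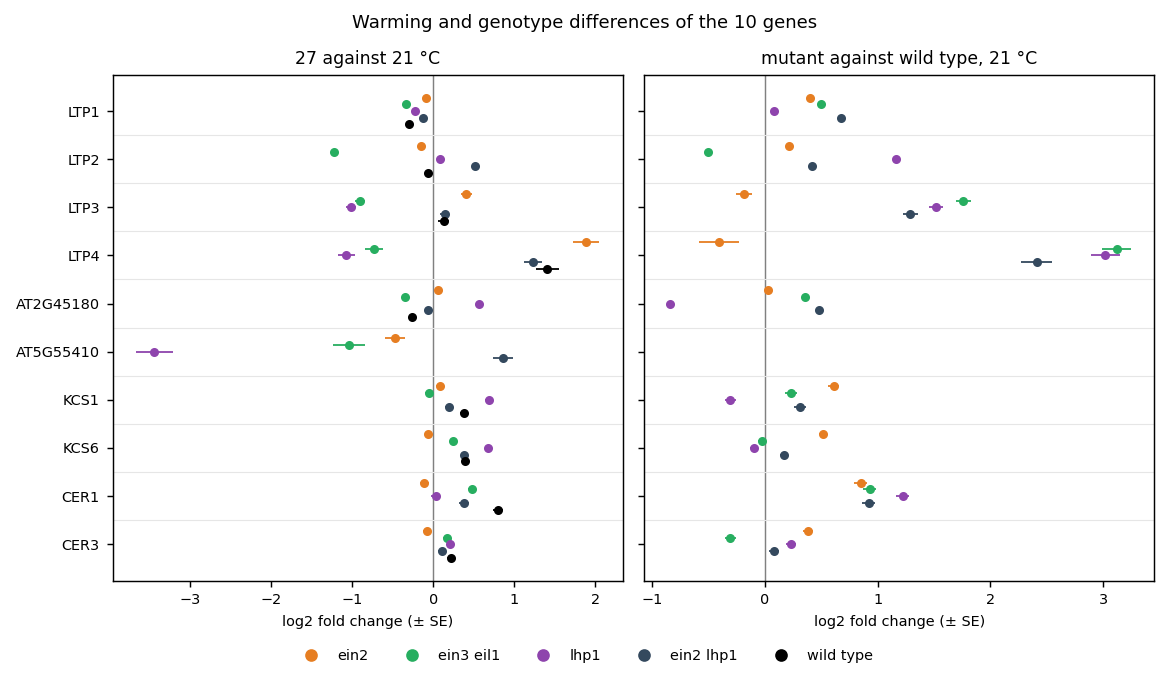
Log2 fold changes of the 10 genes with warming in each genotype (left) and of each mutant against wild type at 21 °C (right); points are estimates over 2 libraries a group, bars are ± 1 SE, and colours are genotypes. AT5G55410 is left out where wild type is involved because it had few counts there. LTP3 and LTP4 fell in ein3 eil1 and lhp1 with warming and were higher than wild type at 21 °C in ein3 eil1, lhp1 and ein2 lhp1.

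At 21 °C CER1 was higher than in wild type in all 4 mutants. It had 63.1 and 63.3 CPM in ein2, 69.6 and 64.2 CPM in ein3 eil1, 82.6 and 80.5 CPM in lhp1 and 66.8 and 65.7 CPM in ein2 lhp1, against 33.0 and 36.9 CPM in wild type. No mutant library overlapped wild type, and the log2 differences were 0.85 (SE 0.058), 0.93 (SE 0.058), 1.22 (SE 0.057, adjusted p = 4.48e-30, edgeR quasi-likelihood test) and 0.92 (SE 0.058) in the same order of mutants. KCS1, with 118 and 121 CPM in ein2, was higher there by 0.61 (SE 0.048) and lower in lhp1 (log2 -0.31, SE 0.049), at 64.3 and 61.6 CPM, against 77.6 and 78.9 CPM in wild type. KCS6 was higher in ein2 by 0.51 (SE 0.035), and its value in lhp1, -0.10 (SE 0.036, adjusted p = 0.0306), was not called without replicate 1 of wild type (-0.08), replicate 2 of wild type (-0.12) or replicate 2 of lhp1 (-0.08) at 21 °C. CER3 was higher in ein2 by 0.38 (SE 0.046) and in lhp1 by 0.23 (SE 0.046) and lower in ein3 eil1 (log2 -0.31, SE 0.048), with 118 and 121, 106 and 110, and 74.5 and 74.0 CPM in those mutants, against 95.4 and 88.6 CPM in wild type. Of the 7 tested genes, 5 were called higher and 1 lower in ein2, against 35.9% of all genes, 18.5% higher and 17.4% lower. In ein3 eil1 5 were higher and 1 lower, against 31.5%, 15.2% higher and 16.3% lower. In lhp1 5 were higher and 2 lower, against 28.3%, 12.6% higher and 15.7% lower. In ein2 lhp1 6 were higher and 0 lower, against 33.8%, 17.6% higher and 16.1% lower. CER3 there was at 0.08, not called, and at 0.12, called, with the length trend removed.

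At 27 °C 2 of the 7 were called in ein2, KCS1 (log2 0.32, SE 0.047) and LTP1 (0.61), both higher. Of all genes 38.1% were called there, 19.8% higher and 18.3% lower. The count at an unadjusted p under 0.05 was also 2, and with the length trend removed it was 4, with KCS6 (0.13) and CER3 (0.15) called as well. In ein3 eil1 7 were called, 4 higher and 3 lower, against 36.6% of all genes, 17.4% higher and 19.2% lower, with CER1 higher by 0.61 (SE 0.054) and CER3 lower (log2 -0.36, SE 0.046). In lhp1 6 were called, all higher, against 26.7%, 14.3% higher and 12.5% lower. In ein2 lhp1 6 were called, all higher, against 47.0%, 24.0% higher and 23.0% lower. In ein2 lhp1 KCS1 was called at 0.12 (SE 0.048, adjusted p = 0.0275, edgeR quasi-likelihood test) but not without replicate 1 of wild type (0.08), replicate 1 of ein2 lhp1 (0.13) or replicate 2 of ein2 lhp1 (0.12) at 27 °C. CER3 there was at -0.03, not called, and at 0.13, called, with the length trend removed. Comparing ein2 lhp1 with ein2, 5 were higher and 1 lower at 27 °C, against 37.4% of all genes, 19.1% higher and 18.3% lower. At 21 °C 3 were higher and 3 lower, against 36.8%, 17.9% higher and 19.0% lower. Comparing it with lhp1, 4 were higher and 1 lower at 27 °C, against 34.4%, 18.6% higher and 15.9% lower. At 21 °C 3 were higher and 4 lower, against 35.9%, 19.3% higher and 16.6% lower. Removing the length trend changed some of these calls. Against ein2 at 21 °C LTP1 went from 0.27 to 0.02, no longer called, and CER1 from 0.07 to 0.21, called. Against lhp1 at 21 °C CER3 went from -0.15 to -0.09, no longer called. Against lhp1 at 27 °C CER1 went from 0.04 to 0.22 and KCS6 from -0.02 to 0.09, both called.

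The start region of KCS6 is shown because it alone of the 10 held the letters ACGTG, the core bound by bZIP and bHLH factors, more than once over both strands. Capitals mark the 4 matches, and at least 4 occur in 1.65% of start regions.
KCS6, chr1:25714975-25715274, minus strand: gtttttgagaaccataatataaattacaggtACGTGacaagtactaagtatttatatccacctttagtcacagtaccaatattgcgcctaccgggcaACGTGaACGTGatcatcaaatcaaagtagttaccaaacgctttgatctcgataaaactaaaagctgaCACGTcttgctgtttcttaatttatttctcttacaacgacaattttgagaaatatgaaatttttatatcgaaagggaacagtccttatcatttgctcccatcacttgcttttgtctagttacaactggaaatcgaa
The last of the 4 also lies within an ABRE, searched as ACGTGGC or ACGTGTC, which 7.64% of start regions hold. ACGTG occurred once in LTP2 and once in CER1, and in 26.7% of all start regions. The L1 box, searched as TAAATGCA or TAAATGTA and known from epidermis genes, occurred once, in LTP4, 9 bases after its start base, and in 5.1% of all start regions. The G-box, CACGTG, which holds ACGTG on both strands, occurred in none of the 10 and in 7.68% of start regions. Both strands were searched, and a match is only a match of letters.

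Other cuticle genes were taken from lists of wax synthesis and export (21 genes), cutin synthesis (14 genes) and regulators (12 genes, 9 of which passed the filter). In ein2 at 21 °C 18 wax genes were called against wild type, 15 higher and 3 lower (median log2 0.29). Of the cutin genes 11 were called, all higher (median 0.32), where 18.5% of all genes were called higher and 17.4% lower with a median of 0.00. Among them were CYP86A2, a cutin hydroxylase (log2 1.29, SE 0.069), and KCS10, an elongation enzyme (0.71, SE 0.037). CYP86A7 and MAH1, the alkane hydroxylase, had the largest log2 differences but at most 1.32 CPM in any library of either group. In lhp1 at 21 °C 12 wax genes were lower and 3 higher (median -0.16). Of the cutin genes 9 were lower and 0 higher (median -0.32), against 15.7% of all genes lower and 12.6% higher. CYP86A2 was lower (log2 -0.90, SE 0.076), GPAT8, an acyltransferase of cutin, (log2 -0.69, SE 0.058), and CER26, a homologue of the elongation factor CER2, (log2 -0.80, SE 0.092), while WSD1, the wax ester synthase, had 0.182 and 0.366 CPM in lhp1 and was listed at 0 in wild type. The summed level of the 6 epidermis markers was 595 to 655 CPM in ein2 and 343 to 360 CPM in lhp1, against 463 to 467 CPM in wild type at 21 °C. Its part in these counts was not tested.

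On warming in wild type the wax list was split, with 7 genes higher and 8 lower (median -0.05), and so was the cutin list, with 4 higher and 3 lower (median 0.05), where 18.8% of all genes were called higher and 20.3% lower. Without the length trend 3 wax genes were higher and 7 lower (median -0.09), and 2 cutin genes were higher and 4 lower (median -0.07). CYP86A2 rose by log2 0.92 (SE 0.069) and CYP86A4, another cutin hydroxylase, fell (log2 -1.15, SE 0.21). CER4, which makes primary alcohols, fell (log2 -0.79, SE 0.20), and MAH1 rose but stayed at or under 0.354 CPM. Against wild type, the response of lhp1 was higher for 7 wax genes and 8 cutin genes and lower for 0 of either, where 12.4% of all genes were called higher and 8.25% lower. LACS1, an acyl-CoA synthetase, was higher by 0.55 (SE 0.11), CER2 by 0.48 (SE 0.12), CYP86A4 by 1.17 (SE 0.30) and GPAT8 by 0.46 (SE 0.081). The response of ein2 was higher for 3 and lower for 9 wax genes and lower for 5 cutin genes, where 11.9% were called higher and 12.2% lower. The transporters were lower, ABCG11 at -0.52 (SE 0.067) and ABCG32 at -0.61 (SE 0.071), as were CER2 at -0.49 (SE 0.12) and CYP86A2 at -1.23 (SE 0.095). Without the length trend the response of ein2 was higher for 1 and lower for 7 wax genes and lower for 3 cutin genes. The response of ein3 eil1 was lower for 10 wax and 5 cutin genes and higher for 0, where 4.07% of all genes were called higher and 5.39% lower. The largest were LTL1 at -0.84 (SE 0.063) and HTH at -0.45 (SE 0.065) for cutin, and KCS20 at -0.31 (SE 0.067) and KCS5 at -0.31 (SE 0.10) for wax, the last not called with the length trend removed (-0.28). The epidermis markers summed to 505 to 535 CPM at 27 °C and 595 to 655 CPM at 21 °C in ein2, and 393 to 394 CPM at 27 °C and 484 to 504 CPM at 21 °C in ein3 eil1. They summed to 413 to 429 CPM at 27 °C and 343 to 360 CPM at 21 °C in lhp1, and 477 to 489 CPM at 27 °C and 463 to 467 CPM at 21 °C in wild type. PDF1 made up most of each sum, with 319 and 316 CPM in wild type at 21 °C. On warming it fell in ein3 eil1 (log2 -0.49) and wild type (log2 -0.10), where HDG2 rose (log2 1.25 and 0.97). Of the 6 markers, 1 was called higher and 2 lower in ein3 eil1, against 16.9% and 19.9% of all genes. In wild type 2 were called higher and 1 lower, so the sums do not show how each marker moved. Their part was not tested.

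Of the regulators, MYB94 and MYB96, activators of wax genes, rose in wild type. MYB94 had 12.5 and 12.0 CPM at 27 °C and 6.15 and 7.22 CPM at 21 °C (log2 0.87, SE 0.13, adjusted p = 3.03e-08, edgeR quasi-likelihood test), and MYB96 had 11.6 and 12.3 CPM at 27 °C and 7.62 and 6.89 CPM at 21 °C (log2 0.72, SE 0.14). Neither was called in ein2, at 0.01 (SE 0.13) and 0.12 (SE 0.13), and the differences of response were -0.86 (SE 0.18, adjusted p = 0.000127) for MYB94 and -0.61 (SE 0.19, adjusted p = 0.0123) for MYB96. MYB94 in ein2 had 9.86 and 9.21 CPM at 27 °C and 9.52 and 9.44 CPM at 21 °C. MYB96 in ein2 had 13.6 and 11.3 CPM at 27 °C and 10.9 and 11.9 CPM at 21 °C. At 21 °C both genes were above wild type, and at 27 °C MYB96 overlapped wild type while MYB94 was below it. In lhp1 MYB96 rose by 0.61 (SE 0.13), and the response of MYB94 was lower than in wild type (log2 -0.63, SE 0.18, adjusted p = 0.00485). MYB94 in lhp1 had 13.6 and 12.5 CPM at 27 °C and 11.2 and 11.0 CPM at 21 °C, at or above wild type at both temperatures. On warming in wild type the log2 difference was -0.11 (SE 0.089) for MYB30, an activator, and -0.01 (SE 0.073) for DEWAX, a repressor of wax genes, neither called. DEWAX at 21 °C had 51.1 and 44.5 CPM in ein3 eil1, against 30.2 and 29.3 CPM in wild type (log2 0.67, SE 0.072, adjusted p = 1.2e-12). SHN1, an activator, was listed at 0 in 18 of 20 libraries.

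Of the 6 other LTP genes listed, 5 passed the filter. On warming in wild type 4 were called lower and 0 higher (median log2 -0.39), with LTP5 at -0.66 (SE 0.035) and LTP10 at -0.56 (SE 0.13), where 18.8% of all genes were called higher and 20.3% lower. After removal of the length trend 2 were called lower, and LTP10 was at -0.20, not called. Against wild type at 21 °C, 2 were higher and 1 lower in ein2, where 18.5% of all genes were higher and 17.4% lower. LTP8 was higher there by 1.23 (SE 0.079) and LTP10 by 0.78 (SE 0.12), while LTP5 was lower (log2 -0.48, SE 0.035). In ein3 eil1 4 were higher and 1 lower, against 15.2% and 16.3% of all genes, with LTP8 higher by 1.15 (SE 0.079) and LTP5 lower (log2 -0.90, SE 0.036). In lhp1 1 was higher, LTP10 by 1.21 (SE 0.11), and 1 lower, LTP5 (log2 -0.40, SE 0.035), against 12.6% and 15.7% of all genes.

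Of 7 genes for hybrid proline-rich proteins, which carry the same domain, 6 passed the filter. The list was split at 21 °C, with 1 gene higher and 4 lower than wild type in ein2 and 2 higher and 2 lower in ein3 eil1, where 18.5% of all genes were higher and 17.4% lower in ein2 and 15.2% higher and 16.3% lower in ein3 eil1. AZI1 and EARLI1, known from systemic defence and cold, had the largest called differences, -2.88 (SE 0.074) and -2.30 (SE 0.12) in ein2 and -3.46 (SE 0.079) and -3.40 (SE 0.14) in ein3 eil1. AT4G12490 was higher in ein2 by 1.46 (SE 0.47), but at only 0.943 and 0.924 CPM against 0.213 and 0.442 CPM in wild type. In ein3 eil1 AT1G62510 was higher by 1.22 (SE 0.088) and AT1G12090 by 0.06 (SE 0.023).

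Among 11664 genes with a mean of at least 10 CPM, those with group means most like each member over the 10 groups were found by Pearson r of log2 CPM, as a description. They were AIR1 (0.967) and AT5G23830 (0.954) for LTP1, AT1G28570 (0.943) and ACX1 (0.942) for LTP2, MAPR4 (0.925) and AT2G35900 (0.923) for LTP3, and AT3G14100 (0.946) and AT5G58375 (0.936) for LTP4. For AT2G45180 they were CAC1 (0.957) and GRF8 (0.948), and for AT5G55410 TIP3;1 (0.983), a seed tonoplast aquaporin, and TSPO (0.97). For the enzymes they were TUB7 (0.956) and AT1G68400 (0.949) for KCS1, AT3G08930 (0.978) and AT2G43160 (0.975) for KCS6, AT1G75800 (0.927) and SQP1 (0.926) for CER1, and PAP26 (0.98) and THFS (0.957) for CER3. All points share the same 20 libraries.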

How the data were processed

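Poly(A) RNA libraries of seedlings were sequenced, per the labels, and the submitters' processing notes list Trim Galore, STAR, featureCounts, Subread 2.0.1 and DESeq2 with the build TAIR10. The deposited values are raw read counts per gene, made with featureCounts 2.0.3 from mates counted singly and without a strand option, per the file headers, which also give an exon length for each gene. The headers of the 27 and 21 °C columns name other temperatures, so they were mapped through the labels; the log2 fold changes in the authors' deposited table were used only to check direction against the counts (lowest r over genes 0.9999). No column of per-sample values was left unmatched (0 columns).

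The 5 tables were joined and fitted in edgeR 4.0.16 (R 4.3.3) with a mean for each of 10 groups, TMM scaling, filterByExpr, glmQLFit and glmQLFTest. The Benjamini-Hochberg adjustment ran over all 21987 genes tested. The spread is pooled over the groups (10 residual and 59.6 prior degrees of freedom), and the script was tested on simulated counts. The members and lists were chosen with earlier results of these data known. The members are a fixed list; of the other lists, the 2 called genes with the largest change in a described comparison and 5 regulators are named, and LTP5 in ein2, AT4G12490, AT1G62510 and AT1G12090 were added after their values were seen. Alternatives were DESeq2 1.42.0 size factors and test, no filter, a replicate block, removal of the trend over exon length, no ribosomal RNA genes, a minimum of 1 log2 unit, and leaving out each library. Coordinates and sequences are from RefSeq TAIR10.1; all 10 genes have the same start and end there as in the files.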

Additional observations from a re-analysis of the deposited data

Results flagged for a closer look

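The response to warming of the 7 tested genes was compared between genotypes in 42 interaction contrasts of the edgeR quasi-likelihood fit. Of these, 30 were called at an adjusted p under 0.05, where 9.46% to 24.1% of all genes were called in each comparison. Each of the 30 is given here as a difference of log2 changes because the groups' responses differed. The contrasts share libraries, so they are not independent.

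For ein2 minus wild type the differences were -0.91 for CER1, -0.46 for KCS6, -0.30 for CER3, -0.29 for KCS1, 0.21 for LTP1 and 0.28 for LTP3. For ein3 eil1 minus wild type they were -2.14 for LTP4, -1.03 for LTP3, -0.43 for KCS1, -0.32 for CER1 and -0.16 for KCS6. For lhp1 minus wild type they were -2.49 for LTP4, -1.14 for LTP3, -0.76 for CER1, 0.31 for KCS1 and 0.28 for KCS6. For ein2 lhp1 minus wild type they were -0.42 for CER1, -0.19 for KCS1 and 0.17 for LTP1; the KCS1 value lost its call in 9 of 20 fits without a library, at values between -0.15 and -0.20. With the length trend removed none of these 3 was called, at -0.20 for CER1, -0.15 for KCS1 and -0.09 for LTP1.

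For ein2 lhp1 minus ein2 they were -0.66 for LTP4, -0.27 for LTP3, 0.49 for CER1, 0.45 for KCS6 and 0.19 for CER3. The LTP3 value lost its call in 5 of 20 fits without a library and the CER3 value in 14. For ein2 lhp1 minus lhp1 they were 2.31 for LTP4, 1.15 for LTP3, 0.34 for CER1, 0.10 for LTP1, -0.50 for KCS1 and -0.29 for KCS6; the LTP1 value lost its call in 6 fits. Removing the length trend also ended the calls of LTP3 (-0.12) and CER3 (-0.15) for ein2 minus wild type and of KCS6 (-0.09) and CER1 (-0.21) for ein3 eil1 minus wild type. It ended those of LTP3 (-0.16) and CER3 (0.15) for ein2 lhp1 minus ein2 and of LTP1 (0.00) for ein2 lhp1 minus lhp1, and turned LTP1 to -0.16, called, for ein2 minus wild type.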

How the results depend on the processing

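Over the 7 tested genes and 23 comparisons there were 126 calls in 161, where 9.46% to 47.0% of all genes were called in each comparison. DESeq2 size factors, the DESeq2 test and no filter each lost 2 calls, the replicate block 1 and the ribosomal RNA setting 1, with no change of sign. Leaving out 1 library lost 0 to 8 calls and changed no sign of a called value. The uncalled values that crossed 0 ranged over the left-out libraries from -0.11 to 0.31 for LTP4 in ein2 and -0.05 to 0.04 for KCS1 in lhp1 against wild type at 27 °C. Among responses against wild type they ranged from -0.10 to 0.00 for CER3 in ein3 eil1, -0.07 to 0.04 for CER3 in lhp1, and in ein2 lhp1 from -0.03 to 0.05 for LTP3, -0.37 to 0.06 for LTP4 and -0.04 to 0.02 for KCS6. For LTP1 in ein2 lhp1 minus ein2 they ranged from -0.06 to 0.00. For the response of ein2 lhp1 minus ein2, the members called ranged over the left-out libraries from 2 to 5. Same-numbered replicates did not deviate together (correlations of -0.046 to 0.026), and the replicate block changed 1 call. The samples were therefore fitted unpaired, though such correlations cannot show whether same-numbered replicates were handled together.

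Removing the length trend lost 17 calls, gained 11, and gave 1 call of opposite sign. The values that changed sign were LTP1 on warming in wild type (0.01), CER1 on warming in lhp1 (-0.04), and at 27 °C LTP3 (-0.12), LTP4 (-0.12) and CER1 (0.09) in ein2, KCS1 in lhp1 (0.01) and CER3 in ein2 lhp1 (0.13) against wild type and KCS6 in ein2 lhp1 against lhp1 (0.09). Among responses against wild type they were LTP1 (-0.16) and LTP3 (-0.12) in ein2, CER3 in ein3 eil1 (0.01), LTP1 (-0.09) and CER3 (0.07) in lhp1, and LTP1 (-0.09), LTP3 (-0.27), KCS6 (0.12) and CER3 (0.01) in ein2 lhp1. LTP1 was at 0.07 for ein2 lhp1 minus ein2 and 0.00 for ein2 lhp1 minus lhp1. The members called became 4 for ein2 against wild type at 27 °C, 1 for the response of ein2 lhp1 minus wild type and 3 for that minus ein2. The cause was not tested.

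With at least 1 log2 unit required, the members called were 3 for lhp1 against wild type at 21 °C; 2 on warming in lhp1, for ein3 eil1 and ein2 lhp1 against wild type at 21 °C, for ein2 lhp1 against wild type at 27 °C, for ein2 lhp1 against ein2 at both temperatures, and for the responses of ein3 eil1 and lhp1 minus wild type and of ein2 lhp1 minus lhp1; 1 on warming in wild type, ein2 and ein2 lhp1 and for ein2 lhp1 against lhp1 at 27 °C; and 0 in the other 9 comparisons. With 2 libraries a group the spread is shared across groups, and AT5G55410 in wild type is limited by counts of 2 to 18.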
